A study of Macrobrachium rosenbergii with 9 samples.

Results

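Transcripts that the androgenic gland and the ovary share, and that the testis holds at a low level, were examined by RNA-seq in the giant freshwater prawn, Macrobrachium rosenbergii. They number 41 of the 21071 transcripts deposited. N, the measure used throughout, is the deposited count of a transcript divided by the size factor of its library, a median of ratios taken over the 11287 transcripts with a count above 0 in all 9 libraries. A transcript was kept when N was at least 50 in each of the 6 gland and ovary libraries, when the lowest of those 6 was at least 3 times the highest testis value, and when its mean N in gland and in ovary lay within 8 times of each other. These values chose the members, so every level and difference between tissues below describes the choice. The edgeR calls and counting intervals given with them are descriptions too and no separate test of the members.

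The series holds 3 libraries of androgenic gland from males, 3 of ovary from females and 3 of testis from males, all from adults of the strain labelled CMr1, with no treatment named. The study's title ties it to transcription factors in sex determination. Whether a tissue's libraries come from separate or pooled animals is not in the labels, so the spread given here is that between these libraries and may be technical. The files do not pair transcript IDs with gene names, and 0 of 21071 IDs matched the 31758 genes of the reference table (RefSeq assembly ASM4041242v1), so the tissues could not be checked by marker genes and a transcript is described by its ID or by its length and the sex label, Female or Male, that the ID carries.

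In decapod crustaceans only males have an androgenic gland, an endocrine organ beside the sperm duct whose insulin-like hormone drives male differentiation. The ovary grows oocytes, which load yolk and store RNA and protein for the embryo, while the testis produces sperm. The gland and the ovary thus belong to different sexes, and the gland is not a gonad. In whole tissue, fewer cells of a type and less RNA per cell cannot be told apart.

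Depth was between 7142794 counts in testis 3 and 11231573 counts in ovary 2. The size factors were 0.635, 0.383 and 0.683 in androgenic gland 1 to 3, 1.51, 1.63 and 1.47 in ovary 1 to 3, and 1.15, 1.27 and 1.15 in testis 1 to 3. A given share of the counts of a library is thus a higher N in gland than in ovary or testis. Testis 2 stood apart within its tissue: across 17043 transcripts its log2 levels correlated at 0.824 with testis 1 and 0.854 with testis 3, against 0.902 to 0.936 for the other pairs of libraries within tissues.

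Few transcripts met the rule. N was at least 50 in all 6 gland and ovary libraries for 5117 transcripts, 44 of these were at least 3 times the testis, and 3 of the 44 were left out because ovary exceeded gland by more than 8 times. None was left out on the gland side. The rule with the tissues turned round gave 135 transcripts shared by gland and testis with ovary low, and 595 shared by ovary and testis with gland low. The 41 were therefore the smallest of the 3 sets made in this way, which is a count and was not tested. Without androgenic gland 2 the rule kept 62 transcripts, without testis 2 it kept 71 and without testis 3 it kept 65. Of the 41, all were still kept without androgenic gland 2 or testis 3, and 38 without testis 2. Leaving out a library can only loosen the limits on N and on the fold, apart from shifts in the size factors. These counts were thus largely fixed in advance, and nothing is read from them.

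**Figure D1:**
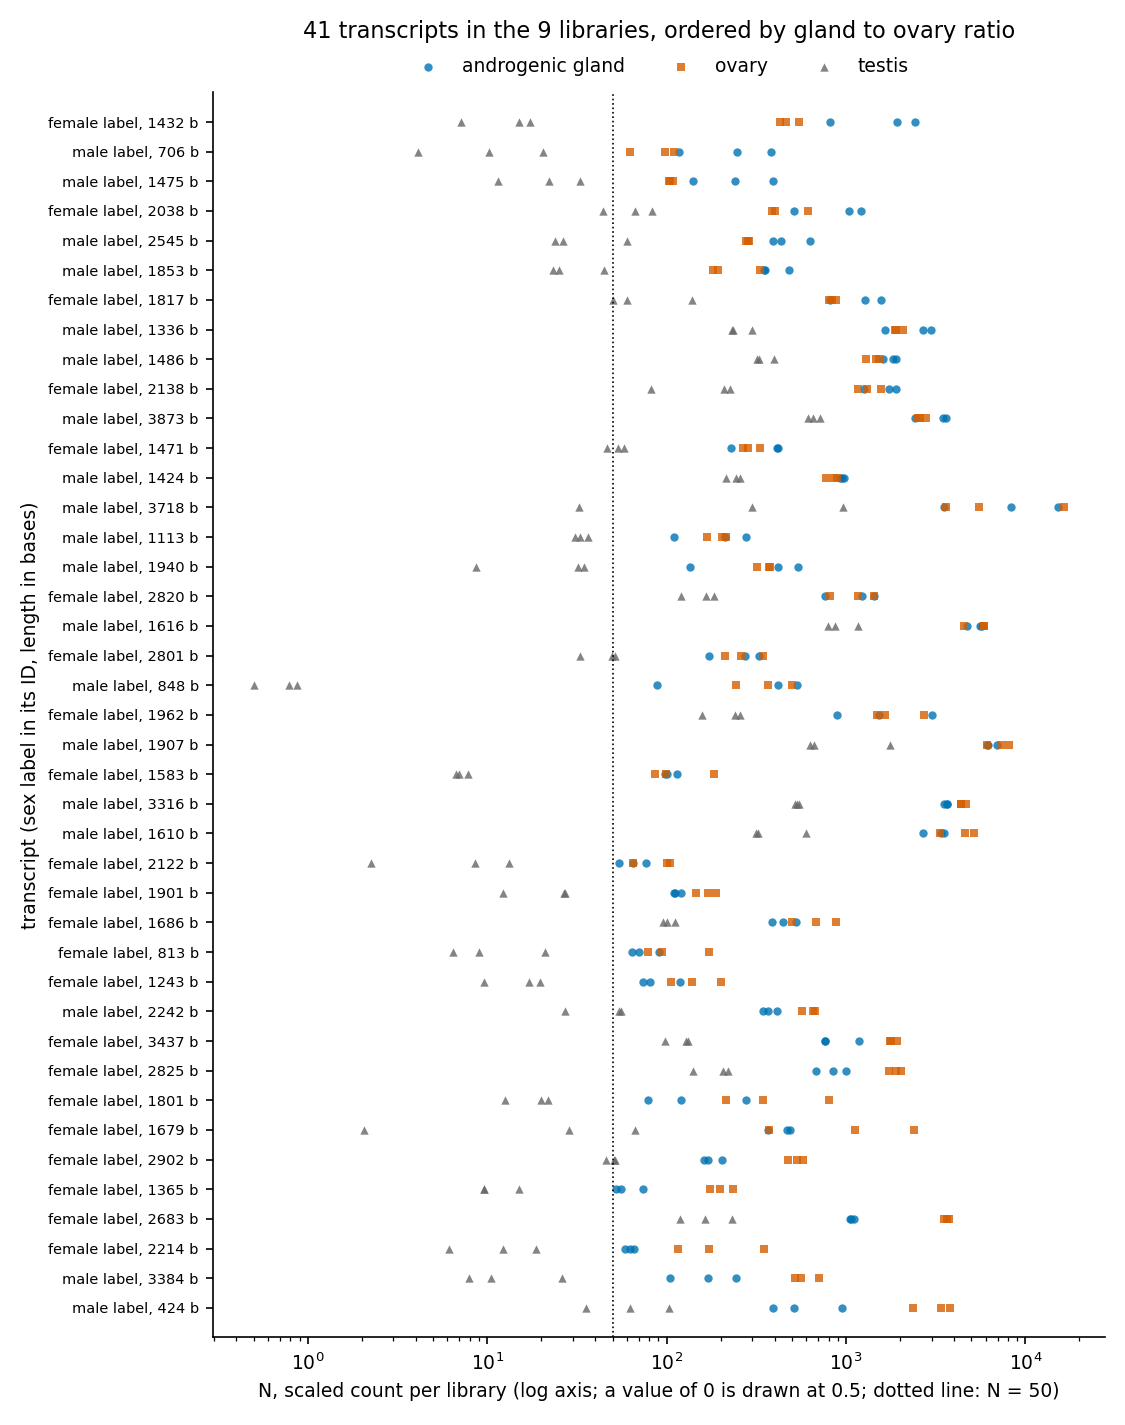
Scaled count N of each of the 41 transcripts (rows, ordered by the ratio of mean N in gland to mean N in ovary, highest at the top) in the 9 libraries, on a log axis, with a point per library for androgenic gland, ovary and testis. All 6 gland and ovary points lie at N of 50 or above in every row, as the rule requires, and gland and ovary points overlap in 23 of the 41 rows.

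The limits of the rule fell within a continuous spread of values. Just inside the fold limit were male-label transcripts of 1424 and 1113 bases, in which the lowest gland or ovary value was 3.01 times the highest testis value. Just outside it were female-label transcripts of 1288 and 929 bases, at 2.999 and 2.97 times. A further 99 transcripts met the other limits with a fold of at least 2 but under 3. At the limit of 50 the nearest members had a lowest N of 52.3 and 54.5, and the nearest transcripts outside had 45.8 and 40.97. The limit of 8 on the mean ratio had no member near it, since the members ran from 3.58 times higher in gland to 5.14 times higher in ovary, while the nearest transcripts outside had gland at 0.0824 and 0.0700 of ovary. Most members were close to the fold limit: 23 had a lowest gland or ovary value under 4 times the highest testis value, 15 had 4 to 10 times and 3 had 10 times or more.

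In androgenic gland against testis, mean N of the members was 3.61 times higher at the least and 7.77 times higher at the median. In ovary against testis the lowest ratio was 3.52 and the median 9.46. With edgeR, which tests counts across all transcripts (Benjamini-Hochberg adjusted p under 0.05 and at least a 2-fold change), all 41 were called higher in gland than in testis, where 16% of the 17043 transcripts tested were called higher. All 41 were also called higher in ovary than in testis, where 26.5% of all tested were. Both calls together were made for 539 transcripts, 3.16% of those tested. The rule used both contrasts, so these counts follow from the choice and nothing is read from them. The median log2 fold change of the members from that fit was 2.92 in gland over testis, beside -0.28 for all transcripts tested, and 3.08 in ovary over testis, beside 0.08.

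**Figure D2:**
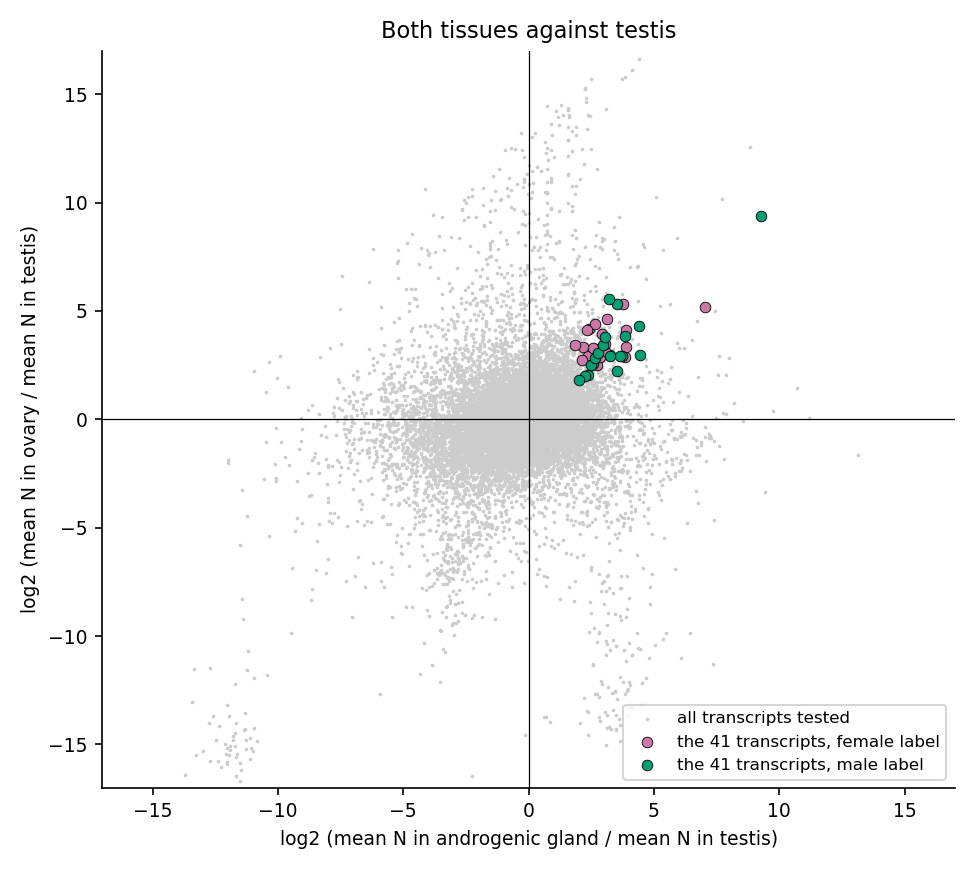
Log2 ratio of mean N in androgenic gland to mean N in testis (horizontal) and of mean N in ovary to mean N in testis (vertical) for all transcripts tested with a mean above 0 in every tissue (grey) and for the 41 members, coloured by the sex label of their ID. The members occupy the upper right quadrant, as the rule requires, and a male-label transcript of 848 bases lies far from the other 40.

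The member with the clearest contrast to testis was that male-label transcript of 848 bases. Its N was 88.3, 416 and 533 in androgenic gland 1 to 3, 503, 369 and 245 in ovary 1 to 3, and 0, 0.789 and 0.872 in testis 1 to 3. The testis values rest on 2 counts over the 3 libraries, and no gland or ovary library came near them. From summed counts it was 606 times higher in gland than in testis, with an exact 95% counting interval of 167 to 5019, and 665 times higher in ovary than in testis, with an interval of 184 to 5498. These intervals cover counting error only. Its levels were uneven within the shared tissues, since androgenic gland 1 was far below the other gland libraries.

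A pair of members was named for the largest distance between the lowest gland and the highest testis value, among members with a mean N over gland and ovary at or above the members' median of 571. The first was transcript_HQ_Female_transcript14526/f4p0/1432, with N of 812, 2429 and 1919 in androgenic gland 1 to 3, 431, 462 and 549 in ovary 1 to 3, and 7.15, 17.4 and 15.1 in testis 1 to 3. Every gland library exceeded every ovary library, and the testis libraries were far below both. Its mean was 1719.8 ± 827 in gland (SD, n = 3), 481 ± 60.9 in ovary and 13.2 ± 5.36 in testis, so gland was 130.4 times and ovary 36.5 times testis. The second was transcript_HQ_Male_transcript487/f9p0/3316, with 3543, 3641 and 3658 in androgenic gland 1 to 3, 4362, 4375 and 4647 in ovary 1 to 3, and 518, 546 and 535 in testis 1 to 3. It was the steadiest of the 41 in gland and in testis, with a coefficient of variation (SD over mean) of 1.72% in gland, 3.61% in ovary and 2.68% in testis. Gland stood at 6.78 times and ovary at 8.37 times testis, and all ovary libraries exceeded all gland libraries by a small margin.

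For ovary against testis, only members at or above the members' median N were ranked, by the lowest ovary over the highest testis value. Those already named for another comparison were passed over. Of these, transcript_HQ_Female_transcript14526/f4p0/1432 ranked highest at 24.8 times, transcript_HQ_Male_transcript12450/f46p0/425 stood at 22.8, transcript_HQ_Female_transcript2353/f2p0/2683 at 15.1 and transcript_HQ_Male_transcript487/f9p0/3316 at 7.99. The highest of the rest were long female-label transcripts, at 13.3 and 7.90 times. The N of transcript_HQ_Female_transcript456/f2p0/3437 was 759.6, 766 and 1182 in androgenic gland 1 to 3, 1935, 1776 and 1752 in ovary 1 to 3, and 98.5, 132 and 128 in testis 1 to 3. Its levels formed steps, with testis lowest, gland in between and ovary highest, and no overlap. The mean in ovary was 15.2 times and the mean in gland 7.56 times that in testis. For transcript_HQ_Female_transcript1756/f3p0/2825 the values were 685, 844 and 1004 in androgenic gland 1 to 3, 1729, 2022 and 1903 in ovary 1 to 3, and 205, 141 and 219 in testis 1 to 3. The order of the tissues was the same, again without overlap.

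How far gland and ovary matched differed from member to member. The ratio of mean N in gland to mean N in ovary had a median of 0.927 over the 41. It was above 1 for 17 members and below 1 for 24. For 28 members the means lay within 2 times of each other. Gland was at least 2 times higher for 3 members, beside 26.1% of the 5117 transcripts with N of at least 50 in all gland and ovary libraries, and ovary was at least 2 times higher for 10, beside 21.9%. The gland and ovary libraries overlapped for 23 members. All gland libraries exceeded all ovary libraries for 7 members, 17.1%, beside 24.2% of all tested and 34.8% of those 5117. All ovary libraries exceeded all gland libraries for 11 members, 26.8%, beside 48.3% and 32.7%. edgeR called 4 members higher and 7 lower in gland than in ovary, beside 20.1% higher and 39.4% lower of all tested. Under scaling to library size alone edgeR called 0 members higher and 32 lower in gland than in ovary, so none of the 4 calls was kept. Over all tested it then called 1152 higher and 10635 lower. The limit of 8 times on the mean ratio used this contrast, as did the demand that both tissues exceed testis, so nothing is read from these counts. The count of 4 was 1 without androgenic gland 2, androgenic gland 3 or ovary 2, and 2 without ovary 1 or ovary 3.

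**Figure D3:**
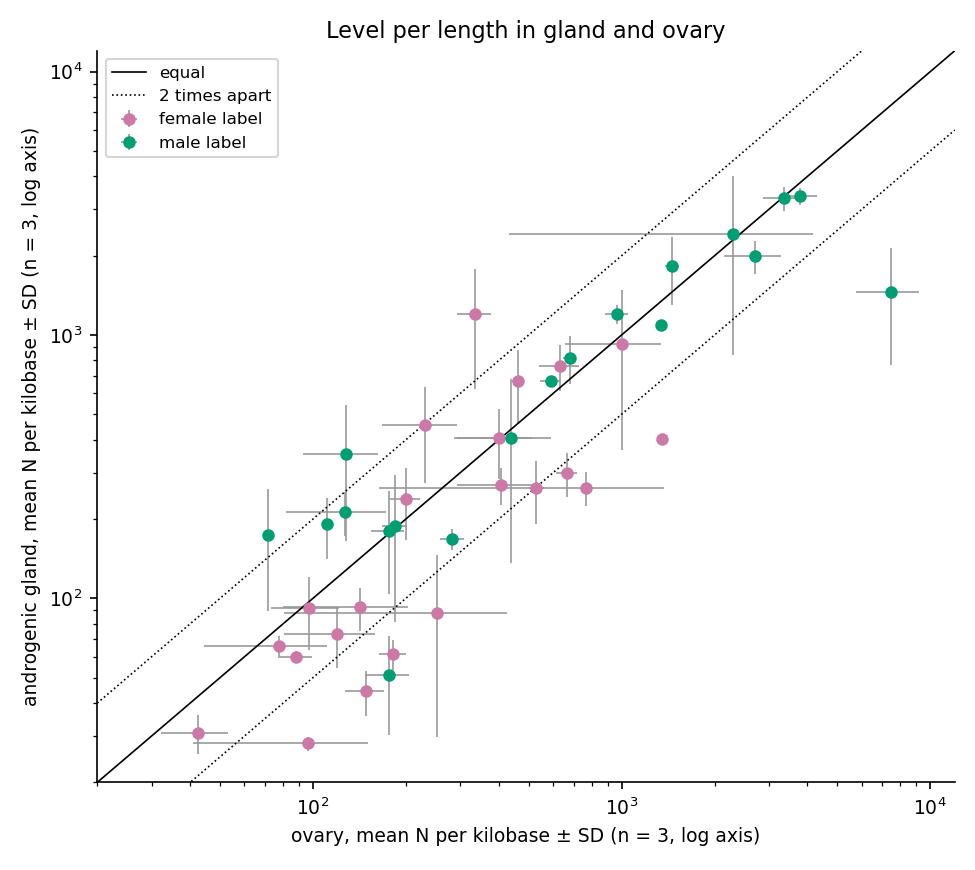
Mean N per kilobase of transcript in ovary (horizontal) and androgenic gland (vertical), both on log axes, for the 41 members, with bars of 1 SD over 3 libraries and colours for the sex label. The solid line marks equal levels and the dotted lines a 2-fold difference; 28 members lie between the dotted lines, 3 above and 10 below them.

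On the gland side, transcript_HQ_Female_transcript14526/f4p0/1432 had the highest ratio, 3.58 times higher in gland than in ovary. Next by the naming rule came transcript_HQ_Female_transcript6307/f2p0/2039, with N of 513, 1043 and 1221 in androgenic gland 1 to 3, 403, 388 and 617 in ovary 1 to 3, and 66.3, 44.5 and 83.3 in testis 1 to 3. Here androgenic gland 1 fell within the range of the ovary libraries, and the mean ratio of 1.97 rested on androgenic gland 2 and 3. edgeR's log2 ratio of gland to ovary for this transcript was 1.06, but -0.54 when levels were read against library size alone. Below the members' median N, the highest ratios belonged to male-label transcripts of 706 and 1475 bases, at 2.76 and 2.45 times. The one of 706 bases had 118, 247 and 382 in androgenic gland 1 to 3, against 62.8, 109.9 and 98.5 in ovary 1 to 3, and 20.4 or less in every testis library. In both, the lowest gland library, androgenic gland 1, was still above the highest ovary library.

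On the ovary side, transcript_HQ_Male_transcript12450/f46p0/425 had the lowest ratio. Its N was 514, 945 and 391 in androgenic gland 1 to 3, 2359, 3371 and 3792 in ovary 1 to 3, and 35.7, 62.3 and 104 in testis 1 to 3. It was 5.14 times higher in ovary than in gland, with no overlap, and 9.18 times higher in gland than in testis. The second, transcript_HQ_Female_transcript2353/f2p0/2683, was steady in both tissues, with 1057, 1111 and 1067 in androgenic gland 1 to 3, 3639, 3756 and 3505 in ovary 1 to 3, and 164, 119 and 232 in testis 1 to 3. Ovary was 3.37 times gland, a gap far larger than the SD of 28.7 in gland and 126 in ovary (n = 3 each). Other members with ovary well above gland were a male-label transcript of 3384 bases at 3.45 times and female-label transcripts of 2214, 1365, 2902, 1679 and 1801 bases at 2.87 to 3.42 times.

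Levels differ with transcript length, so members are compared with each other as N per kilobase. The mean over gland and ovary ran from 36.7 N per kilobase, for a female-label transcript of 2122 bases, to 4470.3, for transcript_HQ_Male_transcript12450/f46p0/425, with a median of 342. Of the 10 members highest on this scale 8 carried the male label and 2 the female label. These 10 held 66.5% of the members' summed mean N in gland, 69.0% in ovary and 65.6% in testis. Male-label members had a median of 629 N per kilobase over gland and ovary and female-label members 279. The male label was carried by 30.5% of all tested and by 40.7% of the 5117 transcripts with N of at least 50 in gland and ovary. Levels by label were not computed beyond the members, so nothing is read from the difference between labels. The 10 members that lead per kilobase in gland and ovary thus also held most of the members' N in testis, a share of N not scaled to length.

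Among these abundant members, a male-label transcript of 1907 bases had 6943, 6174 and 6106 N in androgenic gland 1 to 3, 6133, 8136 and 7352 in ovary 1 to 3, and 1752, 634 and 660.3 in testis 1 to 3. Gland and ovary overlapped, and testis 1 was well above the other testis libraries. A male-label transcript of 1616 bases had 5604, 4713 and 5732 in androgenic gland 1 to 3, 4523, 5917 and 5873 in ovary 1 to 3, and 873, 799 and 1174 in testis 1 to 3. Its mean in gland was 0.984 of that in ovary, the gap being smaller than the spread within either tissue. Neither transcript is scarce in testis: low there means low relative to gland and ovary. N was at least 50 in all 3 testis libraries for 16 of the 41 members and under 50 in all 3 for another 16. In 38 members every testis library was above the level of 3 counts.

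Some members varied more within a tissue than between gland and ovary. The strongest case was a male-label transcript of 3718 bases, the largest contributor to the members' N in gland and ovary. Its N was 3527, 8277 and 15247 in androgenic gland 1 to 3, 16474, 5552 and 3595 in ovary 1 to 3, and 32.6, 963 and 298 in testis 1 to 3. The means in gland and ovary were almost equal, at a ratio of 1.06, yet the highest library was 4.32 times the lowest in gland, 4.58 times in ovary and 29.5 times in testis. A female-label transcript of 1679 bases had 368, 489 and 469.7 in androgenic gland 1 to 3, 2383, 1119 and 372 in ovary 1 to 3, and 2.06, 67.0 and 28.7 in testis 1 to 3. Ovary 3 lay within the gland range for it while ovary 1 was far above. A female-label transcript of 1801 bases had 119.8, 78.4 and 277 in androgenic gland 1 to 3, against 803, 347 and 213 in ovary 1 to 3, where ovary 1 was again highest.

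Over the 41, the highest library was at least 2 times the lowest for 12 members in gland, 7 in ovary and 19 in testis. The median coefficient of variation was 20.7% in gland, 14.6% in ovary and 34.0% in testis. For the 5117 transcripts with N of at least 50 in the 6 gland and ovary libraries these medians were 22.5%, 13.4% and 24.0%. The members' medians were thus close to those of that background in gland and ovary and higher in testis. The rule compared the lowest gland or ovary value with the highest testis value. The choice thus bears on the spread within tissues, and nothing is read from these medians. The members' median level in testis was 49.4 N, beside 298 for the background, and the part of this low level in the wider spread was not tested. Ovary 1 was the highest ovary library for 23 members, androgenic gland 3 the highest gland library for 21 and testis 3 the highest testis library for 23. Androgenic gland 1 was the lowest gland library for 22, ovary 3 the lowest ovary library for 21 and testis 1 the lowest testis library for 22. The lowest of the 6 values that the rule compares with testis came from a gland library for 29 members and from an ovary library for 12.

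As a share of all counts the members were a small part of each library. Their part was 0.258%, 0.189% and 0.383% in androgenic gland 1 to 3, 1.05%, 0.867% and 0.795% in ovary 1 to 3, and 0.0848%, 0.0831% and 0.115% in testis 1 to 3. The means were 0.277% ± 0.0985 in gland, 0.902% ± 0.129 in ovary and 0.0942% ± 0.0178 in testis (SD, n = 3 each). On this scale the tissues did not overlap either, but gland stood well below ovary, whereas on the N scale the members' medians were 418, 529.8 and 469.7 in androgenic gland 1 to 3, 704, 561 and 549 in ovary 1 to 3, and 33.1, 56.0 and 54.0 in testis 1 to 3.

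The distance between gland and testis depended on the scaling. With levels scaled to library size alone, the median ratio of gland to testis over the 41 was 2.85 in place of 7.77, and that of ovary to testis was 10.01 in place of 9.46. The mean in gland stayed above that in testis for all 41, and every gland library exceeded every testis library for 29. Every ovary library exceeded every testis library for all 41 under either scaling. Between gland and ovary the median ratio was 0.313 in place of 0.927, and ovary had the higher mean in 40 of the 41. The like shares over all transcripts were not computed for these counts of members, and the rule used the contrasts with testis. Nothing is read from the counts. The rule applied to levels scaled to library size alone kept 3 transcripts, 2 of them among the 41: transcript_HQ_Female_transcript14526/f4p0/1432 and a male-label transcript of 1853 bases. With TMM factors, which like the size factors read a level against the bulk of transcripts, the rule kept 39 transcripts, 38 of them among the 41. Scaling to library size alone moved the median log2 ratio of gland to testis over all transcripts with counts in both from -0.15 to -1.59. For gland to ovary, over all transcripts with counts in both, it moved from -0.11 to -1.62. The closeness of gland to ovary in these members is thus one of N and not of their share of the counts.

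**Figure D4:**
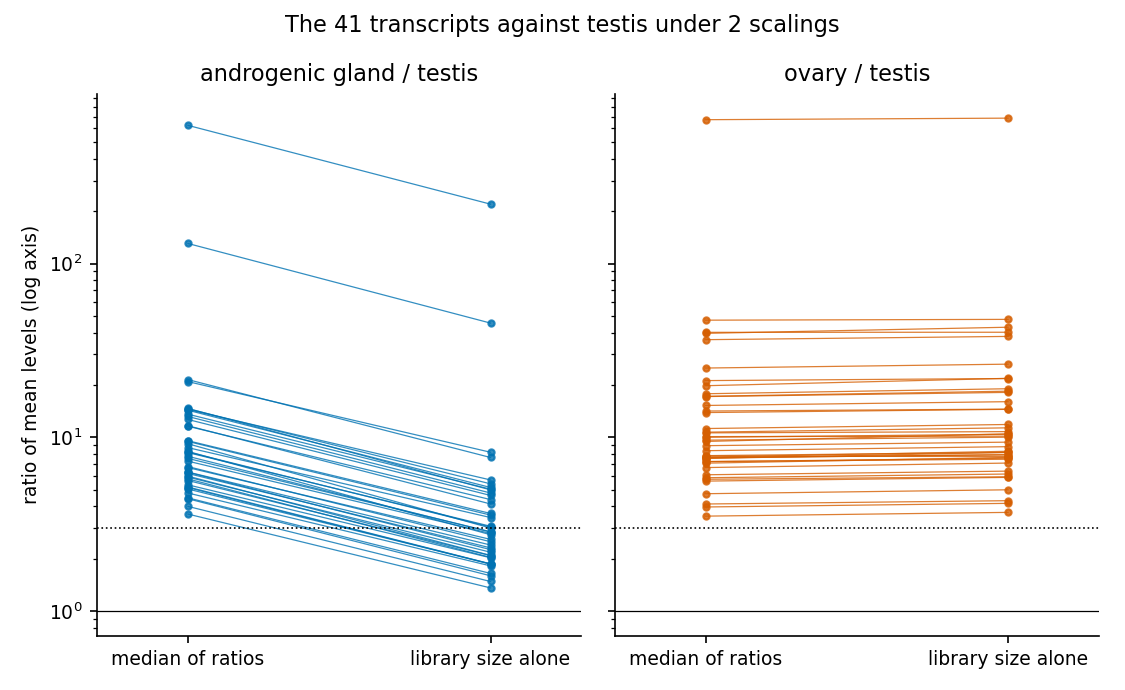
Ratio of mean levels in androgenic gland to testis (left) and in ovary to testis (right), on a log axis, for the 41 members under median of ratios scaling and under library size alone, with a line per transcript; the solid line marks 1 and the dotted line 3. The median gland ratio was 7.77 under median of ratios and 2.85 under library size, and the median ovary ratio 9.46 under median of ratios and 10.01 under library size.

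How the pattern carried over to libraries not used in a choice was examined by applying the rule to 2 replicate numbers of each tissue and reading the third, with size factors from all 9 libraries. With number 1 left out 74 transcripts were chosen, and in the left-out libraries the lower of gland and ovary was at least 3 times testis for 54 of them, 73.0%. With number 2 left out this was 51 of 103, 49.5%, and with number 3 left out 54 of 87, 62.1%. Counting only transcripts with N of at least 50 in the left-out gland and ovary libraries, the fold was met by 52 of 69 chosen transcripts, 75.4%, with number 1 left out, by 50 of 98, 51.0%, with number 2 and by 53 of 82, 64.6%, with number 3. Among all transcripts held to the same limit of 50 it was met by 6.52%, 6.68% and 4.67%. Between 20 and 52 of the chosen transcripts did not meet the fold in the libraries they were not chosen on. Transcripts share libraries and are not independent, and each left-out tissue had 1 library, so these shares are descriptions with no test. Both tissues were above testis for 70 of 74, 93 of 103 and 84 of 87 chosen transcripts. The like share over all transcripts was not counted, so nothing is read from these numbers.

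**Figure D5:**
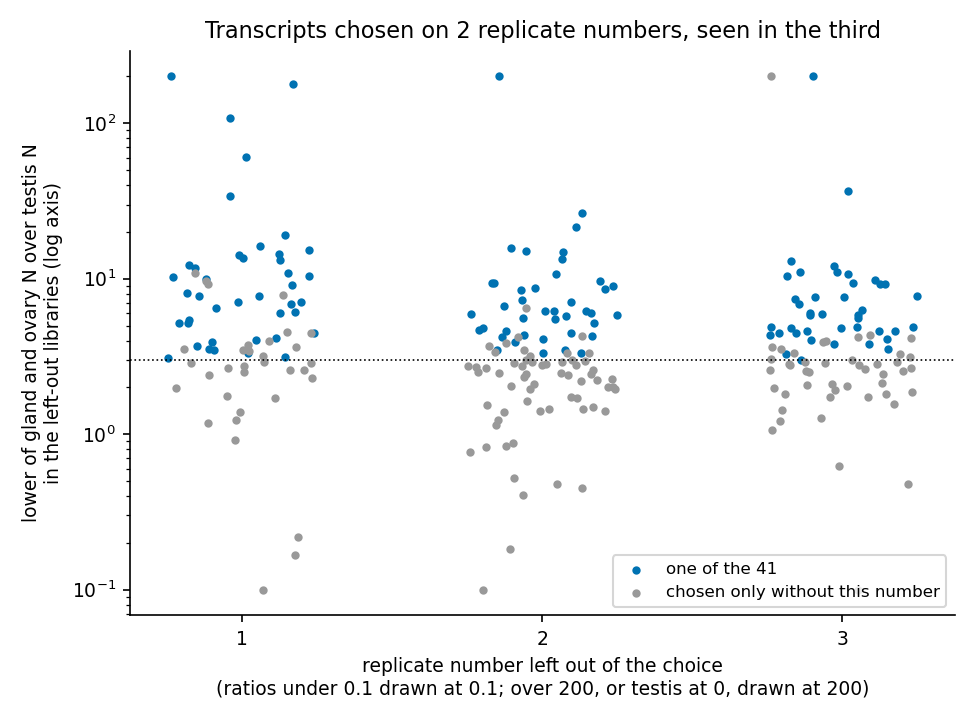
Ratio of the lower of androgenic gland and ovary N to testis N in the libraries of the replicate number that was left out of the choice (log axis), for the 74, 103 and 87 transcripts chosen without number 1, 2 and 3, with the members in blue and the others in grey. The members lie above the dotted line at 3 because the full rule requires it, while 20, 52 and 33 of the other transcripts lie below it.

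Features of the transcripts that the rule did not use were close to, or moderately different from, those of all transcripts. The female label was carried by 22 members and the male label by 19, so 53.7% were female, beside 69.5% of all 17043 tested and 59.3% of the 5117 transcripts with N of at least 50 in gland and ovary. In the sets made by turning the rule round, 41.5% of the gland and testis set and 62.2% of the ovary and testis set had the female label. No source used here says whether the labels name these tissues. Within the members, gland exceeded ovary for 6 of 22 with the female label and 11 of 19 with the male label. Their median ratio of gland to ovary was 0.670 for the female label and 1.02 for the male label. The like values by label over all transcripts were not computed, so nothing is read from these about the members.

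The members were between 424 and 3873 bases long with a median of 1853, beside 1649 for all tested and 2060 for the 5117 abundant in gland and ovary. Of the 41, 16 were 2000 bases or longer and 4 were under 1000. All 41 IDs carried HQ. The IDs have the form used for consensus transcripts of PacBio long reads, in which the number after f counts the full-length reads behind a transcript, although the sources used here do not say that they were made in this way. That number had a median of 3 in the members and 2 in all tested, and was 20 or more in 6 members, 14.6%, beside 4.42% of all tested and 6.55% of the 5117. These 6 were male-label transcripts of 424, 706, 1336 and 1610 bases and female-label transcripts of 1243 and 1962 bases. They included the member with the highest level per length and also the female-label transcript of 1243 bases, at 73.5 N per kilobase in gland and 119.9 in ovary. Several transcripts can come from 1 gene and share its reads, so 41 transcripts need not be 41 genes.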

How the data were processed

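The table the authors deposited holds estimated counts and a length for each transcript, called read counts per the file headers. Between 46.9% and 64.3% of a library's values were whole, so they are expected counts. Per the submitters' processing notes Bowtie 0.12.2 and DESeq 1.10.1 were used and a build mm8, a mouse build, was named, with no roles given. The sources used here do not give the origin of the transcripts, the counter or the strand setting.

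Counts were divided by median of ratios size factors to give N, and the members were found from N. Calls came from edgeR's quasi-likelihood test (edgeR 4.0.16, R 4.3.3) on counts rounded to whole numbers, fitted to the 9 libraries together with 1 mean for each tissue, TMM factors, a prior count of 1 and filterByExpr (minimum count 10, minimum total 15), adjusted over 17043 transcripts. The scripts were tested on simulated data. Alternatives were DESeq2 1.42.0, other scalings, filters and limits, a replicate block and leaving out each library.

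Same-numbered libraries of androgenic gland and testis departed from their tissue means together (r = 0.417, 0.388 and 0.289 across transcripts). The numbers may thus pair these tissues, which the labels do not state. The main fit did not use such a pairing, and the replicate block applied the numbers to all tissues, ovary included. Same-numbered libraries of ovary with either of those tissues did not depart together (r from -0.14 to 0.00855).

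IDs printed are those with the highest and lowest ratio of gland to ovary (2 each), the 2 with the largest ratio of lowest gland to highest testis N, and the 2 highest by lowest ovary to highest testis N once those already named were passed over, among members at or above the members' median N. All others are named by label and length, and those singled out for their spread, level or testis counts were chosen after their values were seen. The members and lists were chosen with earlier results of these data known. Intervals and the level of 3 counts cover counting error only. Transcript sequences were not used here.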

Additional observations from a re-analysis of the deposited data

How the results depend on the processing

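The number of transcripts that meet the rule, 41, was 3 under scaling to library size alone, 140 with a fold limit of 2 and 10 with a fold limit of 5, and leaving out a library gave 43 to 71. With library size alone edgeR called 25 of the 41 higher in gland than in testis, beside 565 of the 17043 tested. It called 0 members higher and 32 lower in gland than in ovary, beside 1152 and 10635 of all tested. This scaling puts all gland levels lower. The rule used these contrasts, so nothing is read from the counts. Members called higher in gland than in ovary, 4, numbered 2 with no filter on low counts and 1 to 4 when a library was left out; the cause was not tested. With that scaling the female label share was 33.3% of only 3 transcripts, and the share of chosen transcripts that met the fold limit was 100% (4 of 4) with number 1 left out and 30% (6 of 20) with number 2 left out. With a fold limit of 2 that share was 65.7% with number 2 left out; the cause was not tested. The log2 ratio of gland to ovary turned to -0.54 under library size alone for transcript_HQ_Female_transcript6307/f2p0/2039. With the replicate block edgeR called 41 members higher in gland and 41 in ovary than in testis, and 4 higher and 7 lower in gland than in ovary, so the block changed none of these counts. DESeq2 gave 41, 41, 3 and 9. Over all transcripts the counts in these directions were 2682, 4460, 3315 and 6676 with the block, and 3060, 5208, 3608 and 7314 with DESeq2. For gland against testis the block gave 6987 calls over all transcripts in place of 7311. Depth limits the members that had few testis counts, whose ratios to testis have wide counting intervals.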
